A study of Homo sapiens with 8 samples.

Results

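The genes of integrins, laminins and collagens were examined in HCT116 cells with and without depletion of CDK8. Members were chosen by symbol alone, as array probe sets annotated with exactly 1 gene whose symbol names a numbered integrin alpha or beta subunit, ITGAV, ITGAE or ITGA2B, a laminin alpha, beta or gamma chain, or a collagen alpha chain. This gave 76 of 33297 probe sets and 74 of 18417 measured genes, namely 13 integrin alpha subunits, 8 integrin beta subunits, 10 laminin chains and 43 collagen chains. COL11A2 was the gene with more than 1 probe set, having 3.

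HCT116 is an established human colorectal cancer line, and CDK8 is the kinase of a module that binds Mediator, the complex that links transcription factors to RNA polymerase II. Total RNA was hybridised to Affymetrix gene arrays, and the series asked how control and CDK8-depleted cells respond to serum. The 4 groups, with 2 arrays each, were shCDK8 cells given 10% fetal bovine serum for 30 min, starved shCDK8 cells, shControl cells given the same serum, and starved shControl cells. All had first been kept for 40 h in McCoy's 5A medium without serum, and each line expressed a short hairpin RNA, directed against CDK8 or a control. A single hairpin was used in each arm, so the loss of CDK8 and any other difference between the lines cannot be told apart. Whether the duplicates were separate cultures is not stated, so p-values reflect only the spread between these samples and that spread may be technical. Because RNA came from whole cultures, more RNA per cell and a larger share of cells with that RNA cannot be told apart either.

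Integrins are heterodimers of an alpha and a beta subunit that span the plasma membrane and tie the cytoskeleton to the matrix outside the cell. Laminins are trimers of an alpha, a beta and a gamma chain and, with network-forming type IV collagen, build the basement membrane on which gut epithelium rests. Collagens are made of triple helices of alpha chains, and most fibrillar collagen of the gut is made by stromal fibroblasts.

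Values are RMA summaries on the log2 scale, so a difference of 1 is a doubling. They depend on each probe set's own probes, so changes are compared between groups, and the rank of a probe set among all means is given only as a rough guide to how bright it is. Array medians lay between 6.44 and 6.51, and duplicates correlated across genes with r from 0.997 to 0.998. The probe set annotated to both CDK8 and ADRA1B was 4.49-fold lower in shCDK8 cells (log2 -2.17 ± 0.04, SE, averaged over both times), with no overlap between the lines. Of 14 colonic epithelial markers measured, EPCAM, KRT8, KRT18 and KRT19 were above the 99th percentile of mean level, and CEACAM5 was among the lowest 25%. Of 11 fibroblast markers, 6 were among those lowest 25%, among them DCN, LUM, POSTN and FAP, as were 4 of 6 endothelial and 4 of 7 leukocyte markers.

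The line comparison asked which of these genes differ when CDK8 is depleted. Averaged over starved and serum-treated cells, 14 of the 74 genes rose in shCDK8 cells and 4 fell (limma, adjusted p below 0.05 by Benjamini-Hochberg over 18417 genes). That is 24.3% of them, close to the 23.3% of all genes called (12% higher, 11.3% lower), so their number does not set the group apart. The median change was -0.00 over the 74 genes and -0.01 over all genes. The 4 shCDK8 arrays lay wholly above or below the 4 shControl arrays for 17 genes, 23% of the 74, against 25.5% of all genes. What follows is therefore about single genes: 4 rose by at least 1.5-fold, as did 1.94% of all genes, and none fell by that much, as 0.966% of all genes did. These were ITGB8, LAMB1, ITGB5 and ITGB4, receptor subunits and a ligand chain.

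**Figure D1:**
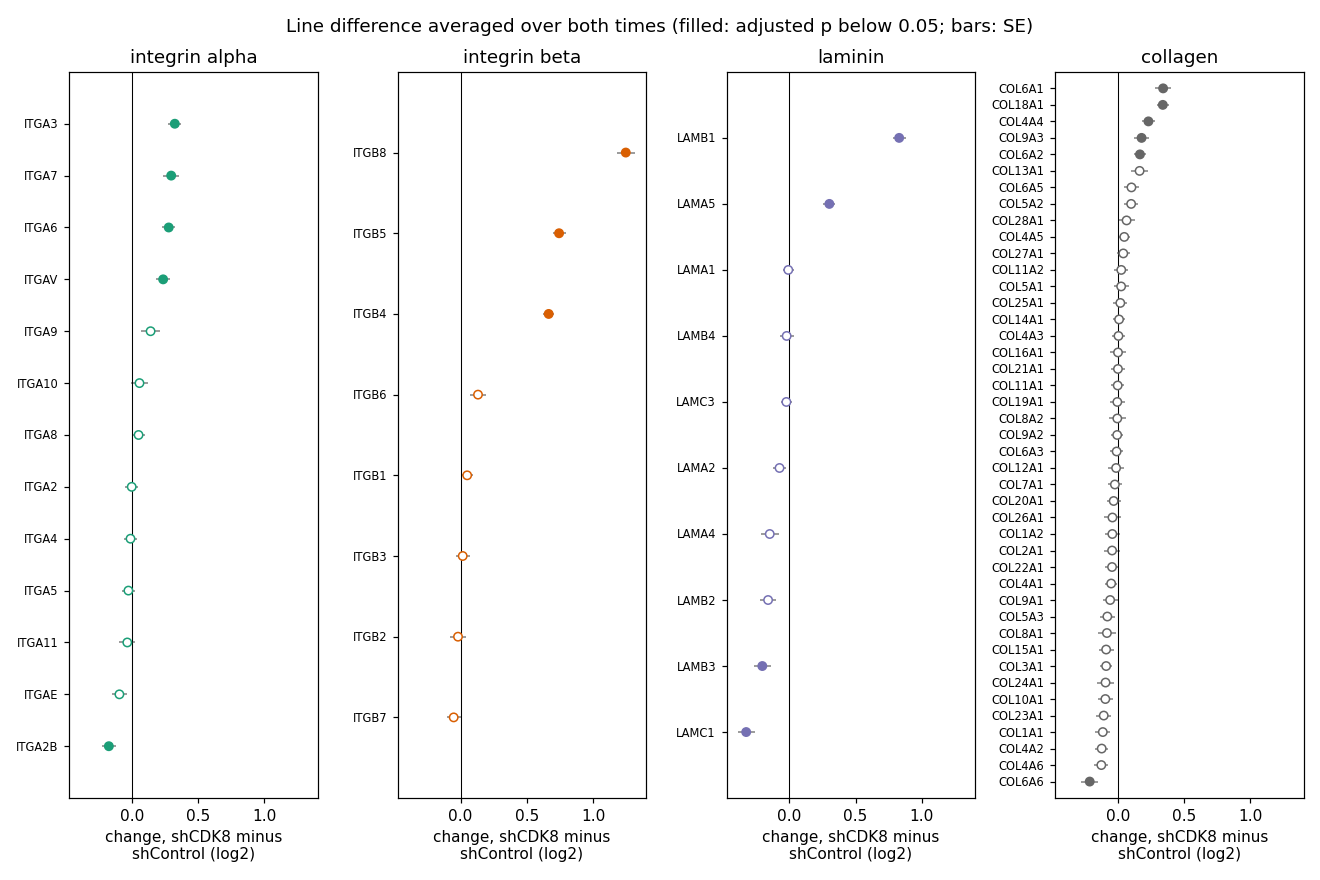
Change of all 74 genes in shCDK8 relative to shControl cells, averaged over both times, on the log2 scale with standard errors, in 4 panels by family; filled points had an adjusted p below 0.05. ITGB8, ITGB5, ITGB4 and LAMB1 lie beyond 0.5, and 37 of 43 collagen chains are not called.

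Calls followed signal level. Of the 45 genes below the median mean level of all genes, 3 were called (6.67%, against 11.4% of all genes there), and of the 29 above it, 15 were (51.7%, against 35.2%). Among the highest 25% of means, 11 of 15 were called, 73.3% against 38.2%. Collagens were mostly dim in this epithelial line, with 30 of 43 below that median and 2 of those called, while the 3 collagens among the highest 25% were all called. These shares describe the annotated genes and were not tested.

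Among receptors, the beta subunits carried the larger differences. ITGB8 (probe set 8131666, chromosome 7) encodes integrin β8, which pairs with the αV subunit and is known for activating latent TGF-β. It read 7.90 and 7.90 in serum-treated shCDK8 cells and 7.52 and 7.69 in starved shCDK8 cells, against 6.43 and 6.55 in serum-treated and 6.40 and 6.65 in starved shControl cells. Every shCDK8 array was thus above every shControl array, with the serum-treated shCDK8 arrays highest. ITGB8 rose 2.37-fold on average (log2 1.25 ± 0.07, adjusted p = 1.41e-06), by 1.08 ± 0.10 in starved cells and by 1.41 ± 0.10 after serum. It was the only one of the 74 genes to differ by 1 or more on the log2 scale.

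The 250 bases before the ITGB8 start at chr7:20330650-20330899 on the plus strand (RefSeq, GRCh38.p14) are shown because ITGB8 had the largest change. The window lies within the RefSeq span of the gene, so a longer ITGB8 transcript also covers it. Capitals mark matches, on either strand, to the GC box (GGGCGG, the core bound by Sp-family factors) and the CCAAT box (CCAAT).
ITGB8: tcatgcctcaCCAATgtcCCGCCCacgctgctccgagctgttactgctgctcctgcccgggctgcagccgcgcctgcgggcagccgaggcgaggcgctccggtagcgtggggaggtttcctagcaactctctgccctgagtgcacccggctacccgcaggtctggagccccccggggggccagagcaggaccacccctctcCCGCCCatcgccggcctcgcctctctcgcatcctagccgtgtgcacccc
It held 2 GC boxes and 1 CCAAT box, and none of the AP-1 site (TGANTCA), the E box (CACGTG), the TCF/LEF core (CTTTGA), the TATA box (TATAAA) or the CArG box of serum response factor. Of 35116 promoter windows of the same length, 42.6% held a GC box, 32.0% CCAAT, 6.57% the AP-1 site, 6.34% the E box, 11.2% the TCF/LEF core, 10.7% the TATA box and 1.16% the CArG box. A match is a run of letters and not a measured site.

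ITGB5 (probe set 8090162, chromosome 3) encodes β5, which pairs with αV to form a vitronectin receptor. It read 9.70 and 9.61 in serum-treated and 9.70 and 9.71 in starved shCDK8 cells, against 8.90 and 8.997 in serum-treated and 8.96 and 8.89 in starved shControl cells. The lines did not overlap, and serum-treated and starved arrays of a line lay close together. The rise was 1.67-fold (log2 0.74 ± 0.05, adjusted p = 4.97e-06), 0.78 in starved cells and 0.71 after serum.

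ITGB4 (probe set 8009951, chromosome 17) encodes β4, which pairs with α6 as the laminin receptor of the hemidesmosome, the junction that anchors epithelium through keratin filaments. It read 10.38 and 10.41 in serum-treated and 10.36 and 10.38 in starved shCDK8 cells, against 9.75 and 9.73 in serum-treated and 9.72 and 9.67 in starved shControl cells. Duplicates lay close together, and the lines did not overlap. ITGB4 rose 1.59-fold (log2 0.66 ± 0.04, adjusted p = 4.89e-06), by 0.67 in starved cells and 0.66 after serum. ITGB1, the common partner of most alpha subunits that bind laminin and collagen, differed by 0.05 ± 0.04 and was not called (adjusted p = 0.498). The other 4 beta subunits, ITGB2, ITGB3, ITGB6 and ITGB7, ranged with it from -0.05 to 0.13.

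**Figure D2:**
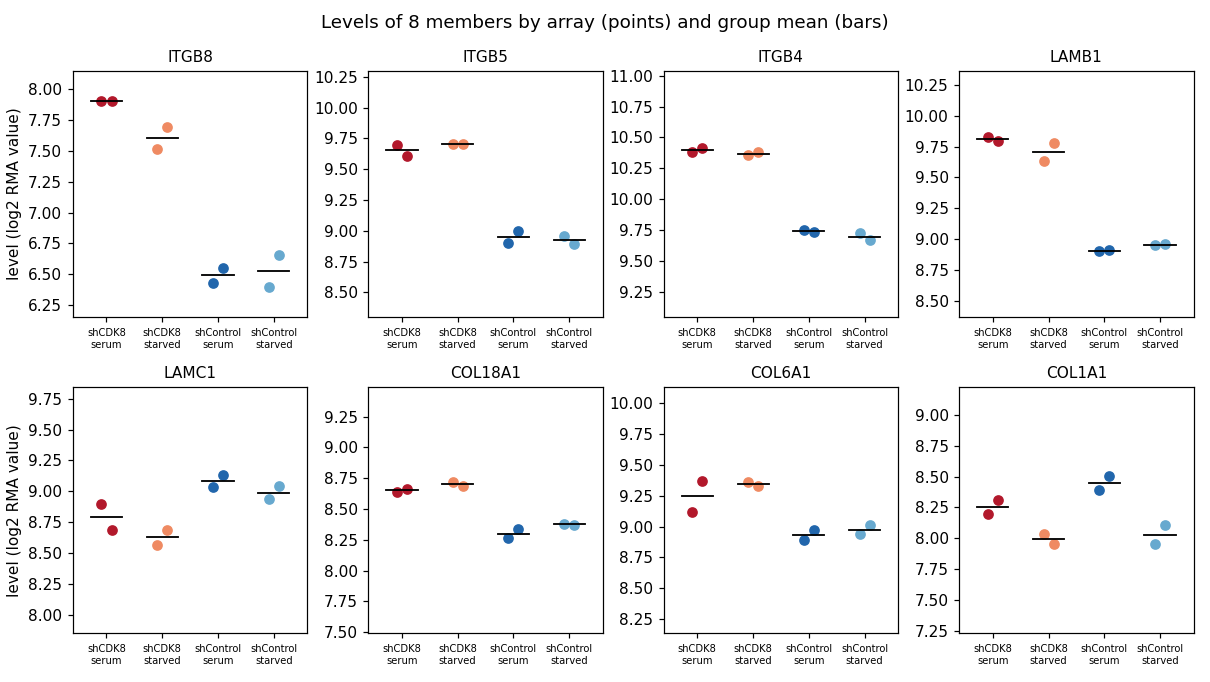
RMA values (log2) of ITGB8, ITGB5, ITGB4, LAMB1, LAMC1, COL18A1, COL6A1 and COL1A1 on each array, with bars at group means and groups ordered as serum-treated shCDK8, starved shCDK8, serum-treated shControl and starved shControl. The lines separate in every panel but that of COL1A1, whose serum-treated arrays lie above the starved arrays of the same line.

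The alpha subunits that pair with these beta subunits rose by less. ITGAV, the partner of β5 and β8, read 9.94 and 9.78 in serum-treated and 9.81 and 9.76 in starved shCDK8 cells, against 9.57 and 9.58 in serum-treated and 9.61 and 9.57 in starved shControl cells. It rose 1.18-fold on average (log2 0.24 ± 0.05, adjusted p = 0.00772). By time it passed after serum (0.28, adjusted p = 0.0291) and not in starved cells (0.19, adjusted p = 0.124). The after-serum call ended without serum array 1 of shCDK8 or either serum array of shControl, with an adjusted p of up to 0.175.

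ITGA6, the partner of β4, read 9.78 and 9.82 in serum-treated and 9.70 and 9.66 in starved shCDK8 cells, against 9.51 and 9.48 in serum-treated and 9.50 and 9.37 in starved shControl cells. The lines did not overlap, and the rise was 1.21-fold (log2 0.28 ± 0.05, adjusted p = 0.00244). ITGA3, whose product pairs with β1 as a laminin receptor, lay between 10.70 and 10.79 on the shCDK8 arrays and between 10.40 and 10.50 on the shControl arrays. It rose 1.25-fold (log2 0.32 ± 0.05, adjusted p = 0.000911). ITGA7, a laminin-binding partner of β1 best known in muscle, lay between 7.25 and 7.40 on shCDK8 arrays against 6.92 to 7.18 on shControl arrays and rose 1.23-fold (log2 0.30 ± 0.06, adjusted p = 0.00607). ITGA6, ITGA3 and ITGA7 thus each rose by under 1.5-fold.

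ITGA2B, the platelet subunit that pairs with β3, was the single integrin gene to fall. It lay between 6.07 and 6.31 on shCDK8 arrays, against 6.34 to 6.40 on shControl arrays, and the change was -0.17 ± 0.05 (adjusted p = 0.0321). The other 8 alpha subunits differed by -0.09 to 0.14 and were not called. Among them ITGA2, whose product binds collagen, differed by -0.00 and ITGA5, whose product binds fibronectin, by -0.03.

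The laminin chains moved in both directions, and 4 of 10 were called (40%, against 23.3% of all genes). All 4 were among the 6 chains above the median mean level of all genes, where 35.2% of all genes were called. They include all 3 chains of the trimer of α5, β1 and γ1, a common laminin of adult basement membranes. LAMB1, the β1 chain (probe set 8142194, chromosome 7), read 9.83 and 9.80 in serum-treated and 9.63 and 9.78 in starved shCDK8 cells, against 8.90 and 8.91 in serum-treated and 8.95 and 8.96 in starved shControl cells. The lines did not overlap, and starved array 1 of shCDK8 lay lowest in its line. LAMB1 rose 1.78-fold (log2 0.83 ± 0.05, adjusted p = 2.24e-06), by 0.75 in starved cells and 0.91 after serum. LAMA5, the α5 chain, lay between 8.86 and 8.96 on shCDK8 arrays against 8.58 to 8.65 on shControl arrays and rose 1.23-fold (log2 0.30 ± 0.04, adjusted p = 0.000926).

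LAMC1, the γ1 chain (probe set 7908041, chromosome 1), moved the other way. It read 8.90 and 8.69 in serum-treated and 8.56 and 8.69 in starved shCDK8 cells, against 9.03 and 9.13 in serum-treated and 8.94 and 9.04 in starved shControl cells. The lines came close but did not overlap, the highest shCDK8 array being serum-treated and the lowest shControl array starved. LAMC1 fell 1.25-fold (log2 -0.32 ± 0.06, adjusted p = 0.00422). It was called in starved cells (-0.36, adjusted p = 0.0248) and not after serum (-0.29, adjusted p = 0.0603). The starved call ended without starved array 1 of shCDK8 or either starved array of shControl, with an adjusted p of up to 0.150.

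The windows of the same length before LAMB1 (chr7:108003162-108003411, minus strand) and LAMC1 (chr1:183023170-183023419, plus strand), from RefSeq on GRCh38.p14, are set together because 2 chains of a single trimer moved in opposite directions. Capitals mark GC boxes on either strand.
LAMB1: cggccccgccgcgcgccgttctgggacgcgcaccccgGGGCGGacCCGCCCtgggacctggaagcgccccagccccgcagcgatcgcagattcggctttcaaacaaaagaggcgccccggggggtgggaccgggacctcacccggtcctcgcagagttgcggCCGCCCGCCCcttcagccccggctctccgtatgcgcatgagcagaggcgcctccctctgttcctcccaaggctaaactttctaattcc
LAMC1: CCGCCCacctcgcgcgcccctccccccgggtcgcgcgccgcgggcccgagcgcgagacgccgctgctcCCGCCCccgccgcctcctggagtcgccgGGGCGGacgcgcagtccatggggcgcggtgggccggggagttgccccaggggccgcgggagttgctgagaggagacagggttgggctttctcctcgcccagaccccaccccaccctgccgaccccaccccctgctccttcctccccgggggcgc
The LAMB1 window held 4 GC boxes, of which the last 2 overlap, and the LAMC1 window held 3. Neither held any of the other 6 motifs searched. They consisted of G and C to 70.4% and 79.6%, against a median of 58.0% over all windows, and the ITGB8 window to 71.2%. The promoter table matched 54 of the 74 genes with 73 windows, of which 53.4% held a GC box.

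LAMB3, the β3 chain of the epithelial laminin that binds α6β4, read 7.44 and 7.46 in serum-treated and 7.34 and 7.24 in starved shCDK8 cells, against 7.63 and 7.64 in serum-treated and 7.65 and 7.37 in starved shControl cells. The lines overlapped through the last of these arrays, and the fall was small (log2 -0.20 ± 0.06, adjusted p = 0.0452). This call ended with cyclic loess, with median centring and without any 1 of 7 arrays. LAMB2, the β2 chain, differed by -0.16 ± 0.06 and was not called (adjusted p = 0.0948). The other 5 chains, LAMA1, LAMA2, LAMA4, LAMB4 and LAMC3, differed by -0.15 to -0.01, and none was called.

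Most collagen chains were not called. Of 43, 5 rose and 1 fell, 14%, against 23.3% of all genes, and the 37 others differed by -0.13 to 0.16. COL18A1 encodes the basement membrane collagen whose C-terminal fragment is endostatin. It read 8.64 and 8.67 in serum-treated and 8.72 and 8.68 in starved shCDK8 cells, against 8.26 and 8.34 in serum-treated and 8.38 and 8.37 in starved shControl cells. The lines did not overlap, and COL18A1 rose 1.26-fold (log2 0.34 ± 0.04, adjusted p = 0.000437).

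Type VI collagen forms beaded microfibrils near basement membranes from an α1, an α2 and 1 further, variable chain. COL6A1 read 9.12 and 9.37 in serum-treated and 9.36 and 9.33 in starved shCDK8 cells, against 8.89 and 8.98 in serum-treated and 8.94 and 9.01 in starved shControl cells. Serum array 1 of shCDK8 lay lowest in its line and still above all shControl arrays. COL6A1 rose 1.27-fold (log2 0.34 ± 0.06, adjusted p = 0.00301). COL6A2 lay between 9.21 and 9.32 on shCDK8 arrays against 9.08 to 9.10 on shControl arrays and rose 1.12-fold (log2 0.17 ± 0.04, adjusted p = 0.0223). Of the candidates for that further chain, COL6A3 differed by -0.01 and COL6A5 by 0.10, neither called, and the dim COL6A6 fell by 0.21 on the log2 scale (adjusted p = 0.0373).

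COL18A1, COL6A1 and COL6A2 lie near each other on chromosome 21, a stretch looked at after these values were seen. Between ITGB2 and COL6A2, 14 genes were measured. The 10 that are neither integrin nor collagen genes differed by -0.16 to 0.10, with a median of 0.02. Only COL18A1-AS1 among them was called, and it fell (-0.16, adjusted p = 0.0452); it is annotated as the antisense gene of COL18A1, and whether its probes read COL18A1 was not tested. ITGB2, at the other end, differed by -0.02. Over the whole chromosome 25 of 237 genes rose and 12 fell, against 12% higher and 11.3% lower among all genes.

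Type IV collagen chains are encoded in head-to-head gene pairs. Of the 6 chains 1 was called, against 23.3% of all genes. COL4A4 lay between 6.24 and 6.41 on shCDK8 arrays against 6.09 to 6.14 on shControl arrays and rose 1.17-fold (log2 0.23 ± 0.05, adjusted p = 0.00955), whereas its divergent neighbour COL4A3 differed by 0.00 ± 0.05. The difference between the 2 genes of the pair was 0.26 ± 0.05 in shCDK8 and 0.03 ± 0.10 in shControl cells (SD, n = 4). An exact two-sided permutation test gave p = 0.0286, the smallest that 4 against 4 arrays can give, and 0.0857 after Benjamini-Hochberg adjustment over 3 pairs. The within-pair differences of COL4A1 and COL4A2 moved by 0.07 (exact permutation p = 0.229, adjusted 0.229) and those of COL4A6 and COL4A5 by -0.17 (exact permutation p = 0.114, adjusted 0.171). With 3 pairs, a single pair at that smallest p cannot pass the threshold after adjustment, so the adjusted values decide nothing about this pair. The unadjusted value is no separate support either, since COL4A4 was called from the same arrays and serum-treated and starved arrays were permuted together.

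COL9A3, a chain of the fibril-associated collagen of cartilage, was the weakest call. It read 8.24 and 8.22 in serum-treated and 8.52 and 8.34 in starved shCDK8 cells, against 7.995 and 8.10 in serum-treated and 8.20 and 8.30 in starved shControl cells. The lines overlapped, since starved shControl arrays reached the serum-treated shCDK8 arrays, and the change was 0.18 ± 0.06 (adjusted p = 0.0498). COL9A1 and COL9A2, its partner chains, differed by -0.06 and -0.01 and were not called.

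Of the 18 calls, 13 held without any 1 of the 8 arrays. The other 5 rested on nearly all of them, and most of these also ended under other alternatives. COL6A6 and LAMB3 were lost with cyclic loess and with median centring. ITGA2B was lost with an intensity trend and with median centring, and COL9A3 with the replicate block and with cyclic loess. With 1 array left out, the 5 calls held as follows. COL6A2 and COL9A3 stayed called only without starved array 2 of shCDK8, with an adjusted p of up to 0.0788 and 0.160. LAMB3 stayed called only without starved array 2 of shControl (up to 0.139), ITGA2B without serum array 1 or starved array 2 of shCDK8 (up to 0.108), and COL6A6 without starved array 2 of shCDK8 or serum array 1 of shControl (up to 0.134).

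Fibroblast markers were looked at beside the collagens, since fibroblasts make much of the matrix in tissue. ACTA2, TAGLN and TWIST1 rose by 0.43, 0.23 and 0.23 on the log2 scale, and the other 8 of the 11 were not called. That is 27.3% higher, against 12% of all genes. The mean level of the list was 5.27 to 5.34 on shCDK8 arrays and 5.19 to 5.25 on shControl arrays, while its defining matrix genes DCN and LUM stayed below the 3rd percentile of mean level. The part of these markers in the collagen values was not tested.

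**Figure D3:**
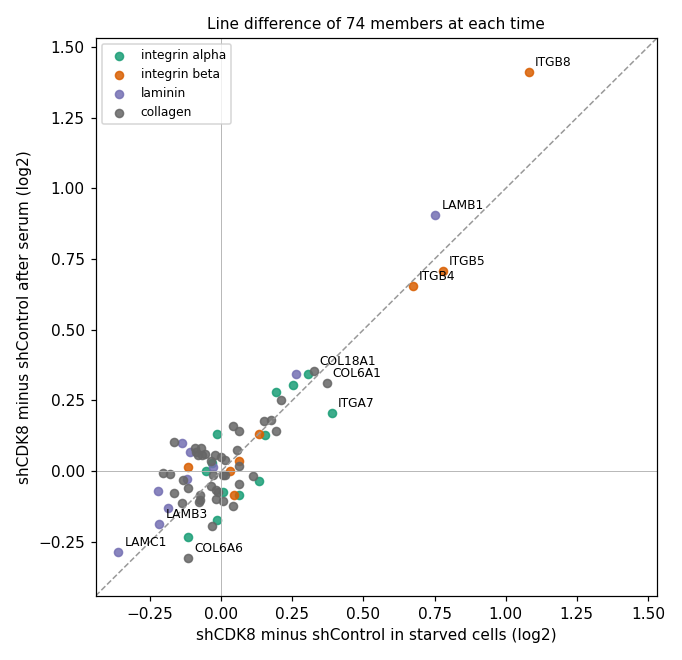
Difference between shCDK8 and shControl cells (log2) for each of the 74 genes, in starved cells on the x axis and after serum on the y axis; the dashed line marks equal differences. ITGB8, LAMB1, ITGB5 and ITGB4 lie farthest from zero at both times, and 9 genes were called at both times.

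The line difference was next taken at each time. In starved cells 10 genes rose and 1 fell, against 13.4% of all genes called (7.13% higher, 6.28% lower). After serum 11 rose and 1 fell, against 14.2% (7.7% higher, 6.54% lower). The 2 comparisons set different arrays against each other but share 1 estimate of the spread from all 8. Both called COL18A1, COL6A1, ITGA3, ITGA6, ITGB4, ITGB5, ITGB8, LAMA5 and LAMB1, all higher in shCDK8 cells. Of these, only ITGB4, ITGB5, ITGB8 and LAMB1 stayed called at both times whichever 1 array was left out. The starved call of LAMA5 (0.26) also ended with the compared arrays fitted alone. The starved call of ITGA6 (0.25, adjusted p = 0.0407) ended with the replicate block, with the compared arrays fitted alone and without any 1 array but starved array 1 of shControl (adjusted p of up to 0.210). The after-serum call of COL6A1 (0.31, adjusted p = 0.0418) ended with the compared arrays fitted alone and without any 1 array but serum array 1 of shCDK8 (up to 0.240). ITGA7 and LAMC1 were called in starved cells only and COL4A4, COL6A6 and ITGAV after serum only. A difference between the times was called for none of them by the test of that difference given with the serum responses. Each of these calls at a single time ended when certain single arrays were left out. Those of COL4A4, COL6A6 and ITGAV ended with the compared arrays fitted alone as well. The COL4A4 and COL6A6 calls also ended with cyclic loess and with median centring. The counts rested on few arrays. The starved count was 4 without starved array 1 of shCDK8, 7 without array 2, and 7 and 6 without starved array 1 or 2 of shControl, and the after-serum count was 5 without serum array 1 of shControl.

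The serum comparison asked which of these genes respond within 30 min. In shControl cells none of the 74 was called (0.462% of all genes were, 0.424% higher and 0.038% lower), and 10 had an unadjusted p below 0.05, as did 1662 of 18417 genes. In shCDK8 cells none was called either (0.255% of all genes, 0.25% higher and 0.00543% lower), and 8 had such a p, as did 1766 of all genes. Averaged over both lines 1 rose, COL1A1, against 0.76% of all genes (0.684% higher, 0.076% lower), and 17 had an unadjusted p below 0.05, as did 2678 of all genes. The median response averaged over both lines was -0.04 over the 74 genes and -0.01 over all genes. Among the 43 collagen chains it was -0.09, with 7 changes above 0, and 13 of these chains had an unadjusted p below 0.05. Of all 18417 genes, 7949 changes were above 0.

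COL1A1 (probe set 8016646, chromosome 17) encodes the α1 chain of type I collagen, the main fibrillar collagen. It read 8.20 and 8.31 in serum-treated against 8.04 and 7.95 in starved shCDK8 cells, and 8.39 and 8.50 in serum-treated against 7.95 and 8.11 in starved shControl cells. Serum-treated arrays were above starved arrays in both lines, and over both lines the lowest serum-treated array lay above the highest starved one. It rose by 0.34 ± 0.06 on the log2 scale (adjusted p = 0.0292), 0.26 in shCDK8 cells (adjusted p = 0.427) and 0.42 in shControl cells (adjusted p = 0.0844). The averaged call ended without any 1 of 6 arrays (adjusted p of up to 0.129) and held without serum array 1 of shCDK8 or starved array 2 of shControl. In shControl cells alone COL1A1 passed when an intensity trend was allowed in the variance prior or each array was centred on its median. COL1A2, the partner chain, differed by -0.09 with serum (adjusted p = 0.483).

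The next smallest p-values did not pass. In shControl cells COL20A1, a minor fibril-associated chain, differed by -0.32 (adjusted p = 0.204) and LAMB4 by -0.25 (adjusted p = 0.358). In shCDK8 cells COL4A1, a basement membrane chain, differed by -0.21 (adjusted p = 0.422), COL12A1, a chain that decorates collagen I fibrils, by 0.26 (adjusted p = 0.425), and ITGB8 by 0.30 (adjusted p = 0.442). ITGB8 differed by -0.04 with serum in shControl cells.

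**Figure D4:**
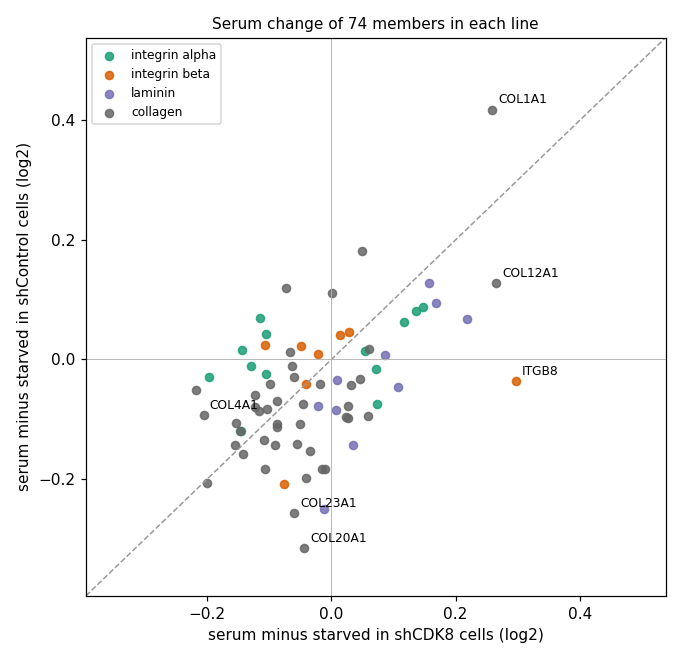
Response to serum (serum-treated minus starved, log2) for each of the 74 genes, in shCDK8 cells on the x axis and in shControl cells on the y axis. COL1A1 lies high in both lines (0.26 and 0.42), and no gene was called in a single line.

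The difference between the lines' serum responses, which is also the difference between the line effects at the 2 times, was called for 0 of the 74 genes and for 0% of all genes by limma. An unadjusted p below 0.05 was found for 2 of the 74 and for 703 of all genes. These 2 were COL20A1 (0.27, unadjusted p = 0.0271) and ITGB8 (0.33 ± 0.14, unadjusted p = 0.0375). The smallest adjusted p among the 74 was 0.9998, which does not show that the responses were alike. With an intensity trend, 7 of all genes and none of the 74 were called.

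Genes around these receptors and ligands were read from lists written for the purpose, and each called share stands against the same 12% higher and 11.3% lower. Those shares cover genes of every level. In either direction, 11.4% of all genes below the median mean level were called, and 35.2% of those above it. No list was compared with genes of like level, so how far level accounts for its called share was not tested. Among 39 genes listed as adhesion adaptors and kinases, 15 rose and 3 fell, with a median of 0.10. FERMT1, the kindlin of epithelium that activates integrins, read 9.25 and 9.25 in serum-treated and 9.07 and 9.13 in starved shCDK8 cells, against 8.22 and 8.19 in serum-treated and 8.22 and 8.07 in starved shControl cells. The lines lay apart by about 1 on the log2 scale, a rise of 1.00 ± 0.05 (adjusted p = 7.13e-07). TNS4 and TNS3, tensins that bind beta tails, rose by 0.94 and 0.62, and PARVA, a partner of integrin-linked kinase, by 0.61. Of 9 hemidesmosome and anchoring genes 2 rose and none fell, FRAS1, an extracellular anchoring protein, by 0.53 and PLEC, which ties β4 to keratin, by 0.39.

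**Figure D5:**
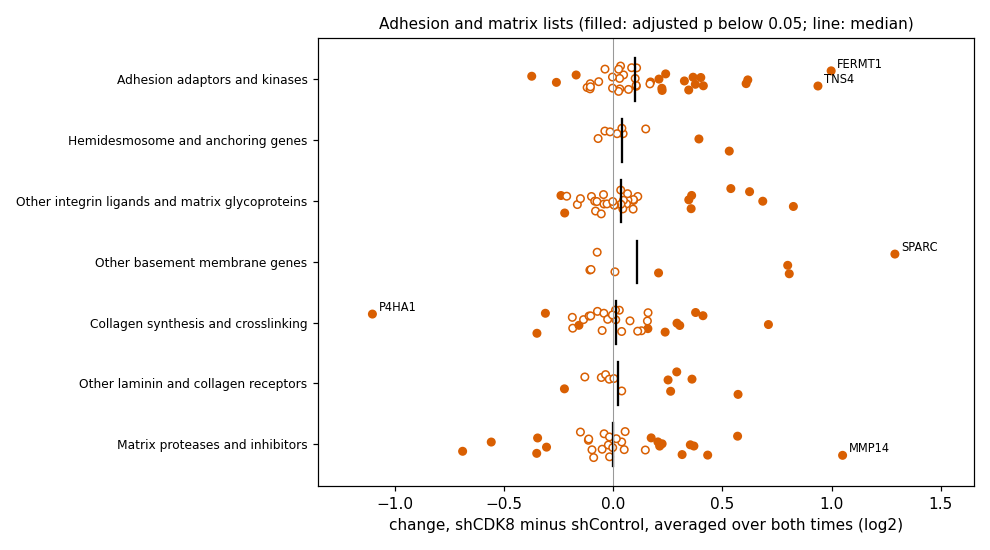
Averaged change in shCDK8 relative to shControl cells (log2) of each measured gene in 7 lists of genes related to integrins and the matrix; filled points had an adjusted p below 0.05 and lines mark list medians. SPARC, MMP14 and FERMT1 lie highest and P4HA1 lowest.

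On the ligand side, 7 of 34 other integrin ligands and matrix glycoproteins rose and 2 fell, with a median of 0.04. THBS1, thrombospondin 1, rose by 0.83 ± 0.10 with the line and by 2.06 with serum averaged over both lines (adjusted p = 4.13e-06). NTN4, a netrin of basement membranes, rose by 0.69, L1CAM, a neural adhesion molecule that binds integrins, by 0.62, and NPNT, a ligand of α8β1, by 0.54. Of 8 other basement membrane genes 4 rose and none fell, with a median of 0.11. SPARC, a matricellular protein that binds collagen, read 6.98 and 6.82 in serum-treated and 6.995 and 6.96 in starved shCDK8 cells, against 5.50 and 5.74 in serum-treated and 5.59 and 5.76 in starved shControl cells. No array overlapped, and SPARC rose 2.45-fold (log2 1.29 ± 0.07, adjusted p = 1.20e-06). AGRN, which binds laminin, and PXDN, which crosslinks type IV collagen, rose by 0.81 and 0.80, and HSPG2, perlecan, by 0.21.

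Of 30 genes of collagen synthesis and crosslinking, 7 rose and 4 fell, with a median of 0.01. P4HA1, a catalytic subunit of collagen prolyl 4-hydroxylase, read 8.59 and 8.69 in serum-treated and 8.61 and 8.68 in starved shCDK8 cells, against 9.97 and 9.68 in serum-treated and 9.81 and 9.53 in starved shControl cells. The shCDK8 arrays were all lower, and P4HA1 fell 2.15-fold (log2 -1.10 ± 0.08, adjusted p = 9.77e-06). P4HA2, the paralogous subunit, rose by 0.38, LOXL2, a lysyl oxidase, by 0.71, and P3H1, a prolyl 3-hydroxylase, by 0.41. P4HA1 and P4HA2 thus moved in opposite directions.

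Of 12 other laminin and collagen receptors 5 rose and 1 fell, with a median of 0.02, and the largest rises were MRC2, an endocytic collagen receptor (0.57), DDR1, a collagen-activated kinase (0.36), SDC3, a syndecan (0.29), and SGCB, a sarcoglycan (0.26). Of 31 matrix proteases and inhibitors 10 rose and 5 fell, with a median of -0.00. MMP14, a membrane-bound collagenase, rose by 1.05 ± 0.06 and CTSB, cathepsin B, by 0.57, whereas ADAM15, a membrane disintegrin, fell by 0.69 and TIMP1, an inhibitor of matrix metalloproteinases, fell by 0.56. Colonic epithelial markers divided too, with KRT18 and KRT8 higher by 0.56 and 0.43 and CLDN4 and KRT19 lower (-0.37 and -0.32), 3 of 14 rising and 2 falling.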

How the data were processed

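Total RNA of 8 samples, grouped by their labels, was measured on 1 array each. The deposited values are log2 probe set summaries that the authors made with RMA, per the submitters' processing notes; RMA corrects background, quantile-normalizes and summarises probes. Its version was not given in the sources used here, nor was a genome build. The array annotation paired 19460 of 33297 probe sets with exactly 1 gene, and 19429 of these matched a RefSeq table of GRCh38.p14. Of several probe sets of a gene (769 genes), the one with the highest mean was used. For COL11A2 the one used differed by 0.03 and the others by 0.22.

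No filter or further normalization was applied. Group means of all 8 arrays were fitted with limma 3.58.1 in R 4.3.3 (lmFit and eBayes, 4 residual and 5.49 prior degrees of freedom), with 7 two-sided contrasts, each adjusted by Benjamini-Hochberg over 18417 genes with a threshold of 0.05. Errors of changes are standard errors, with 2 arrays per group throughout, which limits the precision. Exact permutation tests used scipy 1.17.1 in Python 3.11.15, and figures matplotlib 3.10.9.

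The families, the other lists and the rules were chosen with earlier results of these data known. Values per array are given for genes called in the averaged line contrast with a change of at least 0.5 and for genes called with serum, together with partner chains. The 3 smallest p-values of a contrast with no call, and up to 4 called genes of each other list with the largest changes, are named. The remaining called members are given for completeness. The endothelial list had 0 calls among 6 genes, and of 7 leukocyte markers LYZ rose, by 0.24. Alternatives were an intensity trend, a fit without the arrays not compared, a block for the replicate number, leaving out the dimmest 25% of genes, cyclic loess, median centring, averaging the probe sets of a gene, a test against 1.5-fold and leaving out each array. Samples were not paired by replicate number in the main fit, since what a shared number means is not stated.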

Additional observations from a re-analysis of the deposited data

How the results depend on the processing

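No change in direction was found for any of the 18 genes called in the averaged line contrast under the alternatives run. Against a minimum change of 1.5-fold, which asks more than a difference from zero, the calls were 2 (ITGB8 and LAMB1) in place of 18 in the averaged line contrast, 1 in place of 11 in starved cells, 1 in place of 12 after serum and 0 in place of 1 for serum averaged over both lines. In shControl cells the serum call of COL1A1 appeared with an intensity trend and with median centring (1 in place of 0 each); the cause was not tested. Leaving out 1 array gave 13 to 17 calls in the averaged line contrast, 4 to 10 in starved cells, 5 to 11 after serum and 0 to 1 for serum averaged over both lines, where the array left alone in its group took its spread from the others. The shared replicate numbers were checked by the correlation of same-numbered deviations, which ran from -0.19 to 0.13 between groups. With 2 arrays per group such correlations cannot show whether same-numbered samples shared a culture or a day. The labels do not say what the replicate number stands for. With that number as a block, the calls were 17 in the averaged line contrast, 10 in starved cells, 11 after serum, 1 for serum averaged over both lines and 0 for the other serum contrasts. A crossed pairing of the starved groups, chosen after seeing the data, gave 11 calls in starved cells. Cyclic loess and median centring each gave 15 in the averaged line contrast. The median change of all genes was then -0.003 and 0.0007, against -0.014 as deposited. The files give no background level or detection call per probe set, so how far signal over background limits the collagens with low values was not tested.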
